A study of Mus musculus with 14 samples.

Results

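Ethanol is broken down by a small set of enzymes, and 9 of their genes were followed here: the alcohol dehydrogenases Adh1, Adh4, Adh5 and Adh7, the cytochrome P450 gene Cyp2e1, catalase (Cat), and the aldehyde dehydrogenases Aldh2, Aldh1a1 and Aldh1b1. The genes were chosen for their known roles. Every probe whose only gene symbol in the platform annotation was one of these names was taken, which gave 10 probes of the 21582 in the table. Cat had 2 probes, with the identifiers M29394 and NM_009804, and the other 8 genes had 1 probe each.

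Ethanol is oxidised to acetaldehyde in the cytosol by alcohol dehydrogenases, in the endoplasmic reticulum by CYP2E1, and in peroxisomes by catalase, which uses hydrogen peroxide for it. Acetaldehyde, the more toxic compound, is oxidised to acetate by aldehyde dehydrogenases, of which the mitochondrial ALDH2 has the highest affinity for it. In the adult most of this takes place in hepatocytes, while several of the same enzymes, ADH7 and ALDH1A1 among them, also act on retinol and retinal in the synthesis of retinoic acid.

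The RNA came from fetuses of timed pregnant C57Bl6 mice and was hybridised to 14 two-colour arrays. In the alcohol-fed group (n = 7) the mothers were exposed to ethanol at about 180 to 200 mg/dl from gestational day 15 to 18. The pair-fed group (n = 7) received maltose dextrin in its place, which some of the labels call maltose dextrose. Fetuses were delivered by caesarean section on gestational day 19. The exposure is 4 days long in the protocols and 5 days long in the titles. Each array set 1 sample, labelled with Cy5, against the same Cy3-labelled pool of total RNA from 7 animals with free access to food and water, and channel 2 is named a weight matched control. No label names the tissue, or ties a sample to a litter, so the p-values measure only how far these samples scatter, and that scatter may be technical.

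The values are 1 ratio per probe and array, read as log2 of the sample over the pool. The scale was read from the values; sample over pool is the likely direction because the design text names the sample as channel 1, but no source states it, and every sign below, against the pool and between the fed groups, would turn over with it. Samples carried Cy5 on all arrays, so a dye effect and a difference from the pool cannot be told apart. The dye and the pool both cancel between the fed groups. A value of exactly 0 or at the table's cap of 16.61 was treated as a placeholder and as missing. Placeholders made up 2.57% to 14.6% of an array, the most on pair-fed arrays 6 and 7, and array medians ran from -0.62 to 0.68 before each array was centred on its own median. In bulk RNA, fewer cells of a type and less RNA per cell cannot be told apart.

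The 4 alcohol dehydrogenase genes lie on chromosome 3 on the same strand, in the order Adh7, Adh1, Adh4, Adh5. RefSeq promoter windows (assembly GRCm38.p6) were found for 8 of the 9 genes, Aldh2 being the other. The 100 bases before the start of 5 of them are shown, 5′ to 3′ on the gene's strand. Cat and Adh4 are the members called against the pool, and Adh5 is the neighbour of Adh4. Cyp2e1 and Adh1 are the classic liver enzymes that could not be tested. Capitals mark the core of the TATA box, written TATAA, and the CCAAT box. They also mark the GC box core, written GGGCGG. Both strands were searched, and overlapping matches are joined.
Cat, chr2:103485154-103485253, minus strand: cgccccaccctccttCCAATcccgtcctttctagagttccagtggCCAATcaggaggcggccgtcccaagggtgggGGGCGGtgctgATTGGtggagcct
Adh4, chr3:138415397-138415496, plus strand: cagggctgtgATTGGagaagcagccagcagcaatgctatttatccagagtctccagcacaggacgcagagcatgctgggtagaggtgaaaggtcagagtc
Adh5, chr3:138437100-138437199, plus strand: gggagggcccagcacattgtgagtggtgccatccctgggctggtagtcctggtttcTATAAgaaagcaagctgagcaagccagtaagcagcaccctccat
Adh1, chr3:138277485-138277584, plus strand: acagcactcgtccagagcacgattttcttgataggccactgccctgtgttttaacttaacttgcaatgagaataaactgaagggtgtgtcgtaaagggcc
Cyp2e1, chr7:140763719-140763818, plus strand: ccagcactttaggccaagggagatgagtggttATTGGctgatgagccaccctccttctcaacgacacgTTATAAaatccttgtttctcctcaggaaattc

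The Cat stretch held 3 CCAAT boxes and 1 GGGCGG, and 65% of its bases were G or C, against a median of 55% over 32851 windows of the same length. Adh4, called lower than the pool together with Cat, held 1 CCAAT and no GGGCGG. The Adh5 and Cyp2e1 stretches held TATAA, and Adh1 had none of the 3 motifs. The table lists 2 start sites for Adh5, of which the one nearest the annotated start of the gene is shown. The other Adh5 stretch held 2 GGGCGG and no TATAA, with 73% G and C. Over all windows TATAA was found in 10.2%, CCAAT in 18.9% and GGGCGG in 24.7%. The matches describe the letters only.

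No difference between alcohol-fed and pair-fed samples was called for the 7 member genes tested, and Adh1 and Cyp2e1 could not be tested. Limma called 0 of the 7 member probes it could test, and 0% of all 20876 probes tested, at an adjusted p under 0.05; 881 probes had an unadjusted p under 0.05. The groups overlapped at all 10 member probes. Against the ad libitum pool, Adh4 and Cat (probe M29394) were lower in both fed groups, 2 of the 7 tested member probes in each, where 23.5% of all tested probes were called in alcohol-fed and 21.3% in pair-fed samples. Adh5 in the alcohol-fed group, on the higher side, came next without passing.

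**Figure D1:**
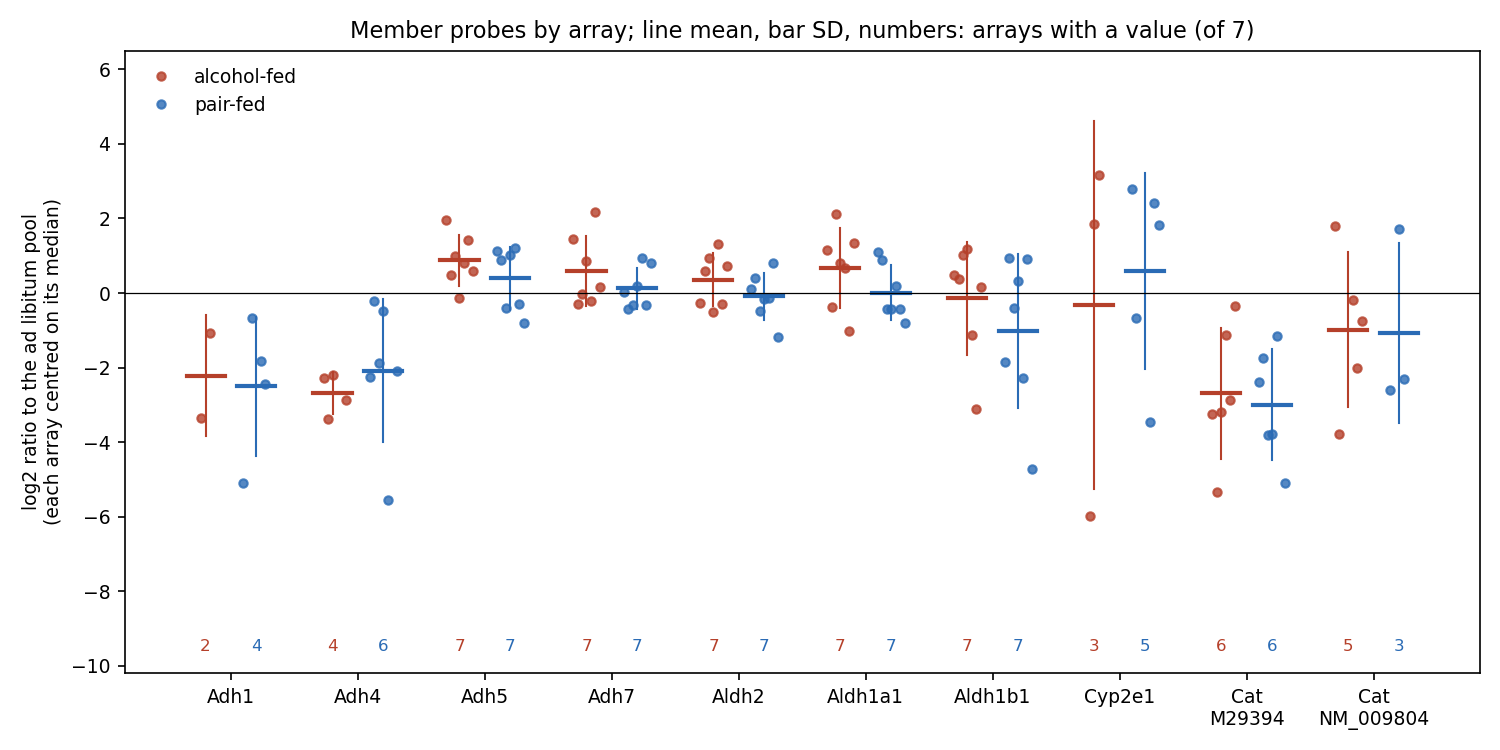
Log2 ratio to the ad libitum pool (vertical axis) of each member probe on every array with a value, in alcohol-fed (red) and pair-fed (blue) samples; thick lines are means, thin bars SD, and the numbers at the foot count the arrays with a value of the 7 in a group. Adh4 and Cat probe M29394 lie below 0 on every array with a value after centring (Adh4 on 9 of 10 as deposited), and both colours overlap at every probe.

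How often a probe gave a ratio at all separated the members. Adh5, Adh7, Aldh2, Aldh1a1 and Aldh1b1 had a ratio on all 14 arrays, as did 68.0% of all probes. Placeholders stood on 2 arrays for Cat probe M29394, on 4 for Adh4, on 6 each for Cyp2e1 and Cat probe NM_009804, and on 8 for Adh1. Thus 4 of the 10 member probes had placeholders on 4 or more arrays, where 6.28% of all probes did. Among probes of other alcohol and aldehyde dehydrogenases it was 1 of 19, and among hepatocyte markers 3 of 22. Other lists were closer to the members, with 6 of 19 among the transcription factors, 3 of 12 among erythroid markers and 4 of 17 among genes of acetate use and NADH shuttling, so sparse ratios were not particular to these enzymes. By group the members had 15 placeholders of 70 values in alcohol-fed and 11 of 70 in pair-fed samples. The test asked for 4 or more values per group, which 7 of the 10 member probes had; Adh1, Cyp2e1 and Cat probe NM_009804 did not.

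**Figure D2:**
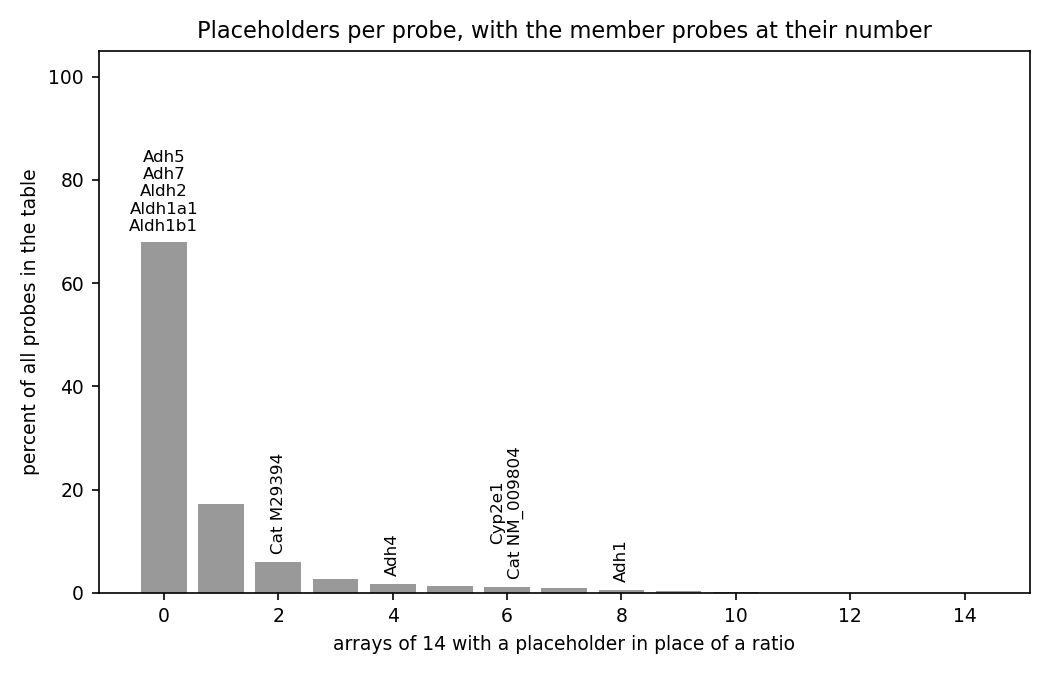
Share of all 21582 probes (vertical axis, percent) by the number of the 14 arrays on which the table holds a placeholder in place of a ratio (horizontal axis), with the member probes written above their number. The members fall into 5 probes at 0 and 5 spread from 2 to 8.

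Adh1 encodes the class I enzyme that carries most ethanol oxidation in adult liver. It had a ratio on 6 arrays. The alcohol-fed values were -3.36 (array 3) and -1.07 (array 5). In the pair-fed group arrays 1, 3, 5 and 6 stood at -5.09, -0.68, -1.82 and -2.45. All 6 ratios were thus below 0, and the alcohol-fed values lay inside the pair-fed range. With so few values the gene was left out of the main test. When 2 values per group were allowed, the pair-fed mean of -2.51 ± 0.69 (SE) had a limma adjusted p of 0.0331 and the alcohol-fed mean of -2.22 ± 0.98 one of 0.131. The exact sign-flip test over 4 arrays gave 0.125, the smallest p those can give.

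Adh4, the class II enzyme of liver, also handles retinol. Its alcohol-fed ratios were -2.27, -3.39, -2.21 and -2.88 on arrays 2, 3, 4 and 7. In the pair-fed group the 6 values ran from -5.56 (array 5) over a median of -1.98 to -0.22 (array 2). The 10 centred ratios were all below 0, and 9 of them as deposited (0.46 on pair-fed array 2 before centring). They were tightly grouped in alcohol-fed samples (mean -2.69 ± 0.56, SD, n = 4) and wide in pair-fed ones (-2.08 ± 1.91, SD, n = 6). Against the pool Adh4 was 6.43-fold lower in alcohol-fed samples (log2 -2.69 ± 0.66, SE; limma adjusted p = 0.0113). In pair-fed samples it was 4.23-fold lower (-2.08 ± 0.54; limma adjusted p = 0.0156). The exact sign-flip test gave 0.125 over 4 alcohol-fed arrays and 0.0313 over 6 pair-fed arrays, the smallest p possible in each case. With placeholders kept as ratios of 0 the alcohol-fed mean was -1.52 (adjusted p = 0.0667). The pair-fed call ended when each group was fitted alone (adjusted p = 0.0507), and without pair-fed array 5 that mean was -1.38 (adjusted p = 0.0311). Between the fed groups the difference of -0.61 ± 0.86 (SE; 95% interval -2.44 to 1.23) left the direction unsettled (limma adjusted p = 0.9996, exact permutation p = 0.552, n = 4 and 6).

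Adh5 is the ubiquitous class III enzyme, which acts on glutathione-bound formaldehyde and takes ethanol only at high concentrations. The alcohol-fed ratios ran from -0.13 (array 4) over a median of 0.81 to 1.97 (array 1), with 6 of 7 arrays above 0. The pair-fed ratios ran from -0.80 (array 7) over 0.89 to 1.21 (array 5), with 4 of 7 above 0. Of the pair-fed arrays 3 lay below the alcohol-fed range and 4 inside it. The alcohol-fed mean of 0.87 ± 0.31 (SE, n = 7) missed the threshold (limma adjusted p = 0.0514; exact sign-flip p = 0.0313), and over other settings its adjusted p ran from 0.0260 under quantile normalization to 0.144 without alcohol-fed array 1. The pair-fed mean was 0.39 ± 0.31 (adjusted p = 0.387). The difference of 0.48 ± 0.44 (95% interval -0.45 to 1.42) did not pass (limma adjusted p = 0.9996, exact permutation p = 0.264, n = 7 and 7).

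Adh7, the class IV enzyme, is found mainly in upper digestive epithelium and oxidises retinol efficiently. Alcohol-fed ratios ran from -0.31 (array 2) over 0.15 to 2.17 (array 6), and pair-fed ratios from -0.42 (array 2) over 0.02 to 0.93 (array 5). Only alcohol-fed arrays 1 and 6 stood above the pair-fed range. The difference was 0.46 ± 0.44 (95% interval -0.48 to 1.40; exact permutation p = 0.281, n = 7 and 7), and 0.20 without alcohol-fed array 6. Neither mean differed from the pool by the test (0.58 ± 0.31, adjusted p = 0.179, and 0.12 ± 0.31, adjusted p = 0.806).

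Cyp2e1, the ethanol-inducible P450 of the endoplasmic reticulum, scattered more than almost any probe. Its 3 alcohol-fed ratios were -5.99, 1.86 and 3.16 on arrays 3, 4 and 5. The 5 pair-fed ratios were 2.79, -0.67, -3.46, 2.43 and 1.83 on arrays 1, 2, 5, 6 and 7. Both groups thus held values far above and far below the pool. On alcohol-fed array 1 the table holds the cap of 16.61 for it. The SD within groups was 3.58, larger than that of 99.98% of the probes tested, whose median was 0.96. The difference, estimated only when 2 values per group were allowed, was -0.91 ± 1.96 (95% interval -5.20 to 3.39; exact permutation p = 0.821, n = 3 and 5). With placeholders kept as values it turned to 1.84, so no direction can be given for this gene.

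Catalase is the hydrogen peroxide-degrading enzyme of peroxisomes. Its probe M29394 had the lowest mean of the tested member probes in both groups, nearly level with Adh4 (both -2.69) in alcohol-fed samples. Alcohol-fed ratios of probe M29394 were spread from -5.33 (array 3) over a median of -3.03 to -0.36 (array 7) on 6 arrays. Pair-fed ratios were spread from -5.09 (array 7) over -3.09 to -1.16 (array 5), also on 6 arrays. All 12 values were below 0, and the groups covered nearly the same range. Cat was 6.46-fold lower than the pool in alcohol-fed samples (log2 -2.69 ± 0.58, SE; limma adjusted p = 0.00401). It was 7.98-fold lower in pair-fed samples (-3.00 ± 0.58; limma adjusted p = 0.00194). The exact sign-flip test gave 0.0313 in each group, the smallest p that 6 arrays allow. Of all probes tested 2.86% had a lower mean in alcohol-fed and 1.72% in pair-fed samples. The difference between the fed groups was 0.31 ± 0.82 (95% interval -1.43 to 2.04; exact permutation p = 0.747, n = 6 and 6), and without pair-fed array 7 it was -0.11.

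The other Cat probe, NM_009804, was less uniform. Its alcohol-fed ratios were 1.80, -3.79, -0.19, -2.0015 and -0.76 on arrays 1, 2, 5, 6 and 7, and its pair-fed ratios were -2.61, 1.71 and -2.32 on arrays 2, 4 and 5. On the 7 arrays with a value from both probes, both were below 0 on 6 after centring. As deposited, NM_009804 stood at 0.23 on alcohol-fed array 5, above 0. On pair-fed array 4 the 2 probes disagreed, with -3.80 for M29394 and 1.71 for NM_009804. With 2 values per group allowed the means were -0.99 ± 0.77 (SE, adjusted p = 0.372) and -1.07 ± 1.00 (adjusted p = 0.472), on the same side of the pool as the first probe and not past the threshold. The mean over both probes gave -1.99 (adjusted p = 0.0361) in alcohol-fed and -2.71 (adjusted p = 0.0125) in pair-fed samples.

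Aldh2, the main mitochondrial acetaldehyde dehydrogenase, was the least variable member, with an SD within groups of 0.67 and 15.7% of the tested probes below that. Alcohol-fed ratios ran from -0.51 (array 4) over 0.58 to 1.31 (array 5). Pair-fed ratios ran from -1.19 (array 7) over -0.14 to 0.81 (array 6). The groups shared most of their range, with 4 of 7 alcohol-fed and 3 of 7 pair-fed arrays above 0. The difference was 0.45 ± 0.41 (95% interval -0.42 to 1.31; limma adjusted p = 0.9996, exact permutation p = 0.244, n = 7 and 7). Against the pool the means were 0.35 ± 0.29 (adjusted p = 0.387) and -0.09 ± 0.29 (adjusted p = 0.847).

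Aldh1a1, a cytosolic enzyme of retinal and acetaldehyde oxidation, had the smallest exact p of the members between the fed groups. Alcohol-fed ratios ran from -1.03 (array 6) over 0.79 to 2.13 (array 3), with 5 of 7 above 0. Pair-fed ratios ran from -0.81 (array 7) over -0.42 to 1.10 (array 1), with 3 of 7 above 0. The alcohol-fed samples held both the highest and the lowest value of the 14. The difference of 0.66 ± 0.49 (95% interval -0.38 to 1.70) did not pass (limma adjusted p = 0.9996, exact permutation p = 0.201, n = 7 and 7). Without alcohol-fed array 6 it was 0.94 ± 0.46 (adjusted p = 0.967). The mean ratio to the pool was 0.67 ± 0.35 (adjusted p = 0.166) in alcohol-fed and 0.01 ± 0.35 (adjusted p = 0.984) in pair-fed samples.

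Aldh1b1, a mitochondrial relative of Aldh2, had a value on every array and yet spread widely. Alcohol-fed ratios ran from -3.10 (array 6) over 0.36 to 1.18 (array 4), and pair-fed ratios from -4.71 (array 7) over -0.41 to 0.93 (array 2). In the alcohol-fed group array 6 lay far below the others, and in the pair-fed group arrays 1, 5 and 7 were all low (-1.85, -2.29 and -4.71). Its SD within groups of 1.81 exceeded that of 92.9% of the tested probes. The difference of 0.87 ± 0.84 (95% interval -0.90 to 2.64; exact permutation p = 0.385, n = 7 and 7) became 0.25 without pair-fed array 7 and 1.36 without alcohol-fed array 6. The means against the pool were -0.15 ± 0.60 (adjusted p = 0.876) and -1.01 ± 0.60 (adjusted p = 0.230).

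Set side by side, 6 of the 7 tested member probes had a difference above 0 (alcohol-fed minus pair-fed), where 51.1% of all tested probes did, and their median difference was 0.46 against 0.01 over all tested probes. With the direction of the ratio turned, 1 of the 7 would lie above 0. None passed alone, and the members share arrays, so the count carries no test. Pair-fed array 7 was the lowest of its group for 5 of the 8 member probes with a value on it, Adh5, Aldh2, Aldh1a1, Aldh1b1 and Cat probe M29394. It was singled out after its values were seen, and 9.51% of its probes held placeholders. Without it the differences were 0.28 for Adh5, 0.57 for Adh7, 0.26 for Aldh2, 0.52 for Aldh1a1 and 0.25 for Aldh1b1, while Cat turned to -0.11. The half-width of the 95% interval ran from 0.87 (Aldh2) to 1.84 (Adh4) among the 7 tested member probes, and its median over all tested probes was 1.09. A 2-fold difference, 1 on the log2 scale, therefore lay inside the interval of each of the 7 on at least one side.

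**Figure D3:**
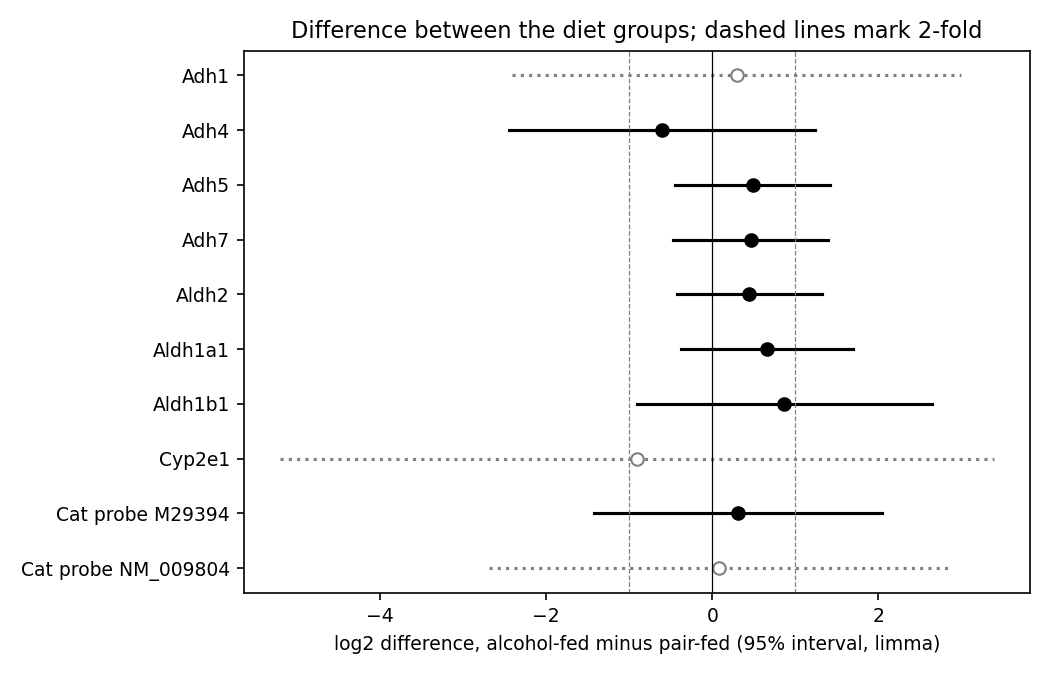
Log2 difference between alcohol-fed and pair-fed samples (horizontal axis) with its 95% limma interval for each member probe; filled points were tested, and open points with dotted lines come from the fit that allowed 2 values per group. Every interval includes 0, and each reaches past a dashed 2-fold line.

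Both member probes called against the pool were lower. Of all tested probes 8.02% were higher and 15.5% lower in alcohol-fed samples, and 7.86% were higher and 13.5% lower in pair-fed samples. With 7 probes tested, the members' count of 2 is close to the share the array gave as a whole. Adh4 and Cat probe M29394 both had placeholders. Among probes with a value on all 14 arrays, 50.3% of those called were higher in alcohol-fed and 51.2% in pair-fed samples. Over all tested probes these shares were 34.1% and 36.9%. Whether placeholders bear on the low ratios was not tested. The median over the 7 tested member probes was 0.35 in alcohol-fed and -0.09 in pair-fed samples, beside 0.01 and -0.03 over all tested probes. Of the 7, 5 had a value on all 14 arrays, and the medians over all such probes were 0.23 and 0.16. Both contrasts share the pool, whose own spread among 7 animals was not measured, and their calls in common are not independent.

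Around these enzymes, 102 other genes of the pathway were listed by role; 77 were on the array and 70 could be tested, with 77 probes. Between the fed groups 0 of them passed. Against the pool 4 genes were higher and 20 lower in alcohol-fed samples, 31.2% of the probes, where 23.5% of all tested probes were called. In pair-fed samples 3 were higher, 13 lower and 1, the transcription factor Foxo3, had probes on both sides. These made up 23.4% of the probes, close to the 21.3% of all tested probes. The same shares of all tested probes are the background for the list counts that follow. The medians of the 77 probes were -0.20 and -0.31.

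Among other alcohol and aldehyde dehydrogenases (19 genes tested) limma called 2 higher and 7 lower in alcohol-fed, 1 higher and 3 lower in pair-fed samples. Dhrs4, a carbonyl and retinal reductase, stood at -3.14 ± 0.36 and -3.12 ± 0.36 in alcohol-fed and pair-fed samples (limma adjusted p = 5.88e-06 and 7.04e-06). Aldh3a2, the fatty aldehyde dehydrogenase, was lower in both groups too (-2.72 ± 0.41 and -2.55 ± 0.41). Aldh9a1, which oxidises aminoaldehydes, had -2.95 ± 0.60 and -2.46 ± 0.56. Aldh3b1 was lower in alcohol-fed samples (-3.91 ± 0.58, adjusted p = 0.000198), while its pair-fed mean of -1.44 ± 0.58 did not pass (adjusted p = 0.0871). The difference between the fed groups for Aldh3b1 was -2.47 ± 0.82, with an unadjusted limma p of 0.00837 and an adjusted p of 0.9996. Aldh1a2, the retinal dehydrogenase of the embryo, named after its values were seen, was higher in both groups (1.00 ± 0.33 and 0.99 ± 0.33; adjusted p = 0.0364 and 0.0400). With 1 array of the same group left out, these calls ended in 4 of 7 cases each (adjusted p up to 0.107 and 0.120).

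Most genes of catalase's peroxisomal surroundings were not called. Of 17 genes of peroxisomal oxidases, importers and assembly factors 1 was higher and 0 lower in alcohol-fed samples, and 1 was higher and 1 lower in pair-fed samples. The medians were 0.11 and 0.07, where Cat probe M29394 stood at -2.69 and -3.00. The difference between Cat and the list was not tested. The import receptor gene Pex19 had 0.89 ± 0.30 in alcohol-fed samples (adjusted p = 0.0416), a call that ended when any of the 7 alcohol-fed arrays was left out (adjusted p = 0.0513 to 0.110). Pex16, needed for peroxisome membrane assembly, had -1.80 ± 0.58 (adjusted p = 0.0342) and the branched-chain acyl-CoA oxidase gene Acox3 0.84 ± 0.29 (adjusted p = 0.0482) in pair-fed samples. Acox3 was called in 14 of 27 settings (adjusted p up to 0.132) and Pex16 in 22 of 27 (up to 0.118, with -1.25 at the nearest to 0). Of the 5 tested partners of the microsomal system, Cyb5a, Cyb5b, Cyb5r3, Hmox1 and Nqo1, 0 were called in either group by limma. Por, the reductase of this system, was not among the genes tested. Cyb5a, the electron donor cytochrome b5, came nearest in alcohol-fed samples (-0.86 ± 0.32, adjusted p = 0.0608), and Nqo1, a quinone reductase, in pair-fed samples (-1.79 ± 0.65, adjusted p = 0.0625), where its other probe stood at 0.31.

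Downstream of acetaldehyde, 12 genes of acetate use and NADH shuttling were tested, with 1 higher and 6 lower in alcohol-fed and 0 higher and 4 lower in pair-fed samples. Acss2, the cytosolic enzyme that turns acetate into acetyl-CoA, stood at -3.72 ± 0.38 and -3.68 ± 0.38 (limma adjusted p = 1.28e-06 and 1.57e-06). Mdh1, the cytosolic malate dehydrogenase of the NADH shuttle, had -3.51 ± 0.68 and -3.85 ± 0.74. The mitochondrial aspartate-glutamate carrier gene Slc25a13 had -2.13 ± 0.33 and -2.33 ± 0.33. All 3 were called lower in both groups, while the median of the list was 0.12 in alcohol-fed and -0.17 in pair-fed samples. Ldha, lactate dehydrogenase A, had the smallest p of the list between the fed groups (-2.26 ± 1.01, limma adjusted p = 0.9996).

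Of 6 genes of non-oxidative ethanol metabolism 2 were lower in each group. These were Ugt1a6a, a glucuronosyltransferase (-2.23 ± 0.30 and -2.39 ± 0.30), and Pld2, a phospholipase that can form phosphatidylethanol (-1.72 ± 0.28 and -1.79 ± 0.28). Among 11 transcription factors known to act on the member genes in liver, 5 were lower in alcohol-fed samples. In pair-fed samples 3 were lower, 1 higher and Foxo3 mixed. Probes of a gene often disagreed here. Hnf4a had -2.60 and 0.40 in alcohol-fed and -1.36 and 1.12 in pair-fed samples on its 2 probes, and Foxo3 had -1.03 and 0.85, and -1.33 and 0.96. Ppara, the receptor that drives peroxisomal genes, had -2.20 ± 0.40 and -2.58 ± 0.40 (adjusted p = 0.000809 and 0.000181). Foxa2, a liver-enriched factor, had -2.11 ± 0.53 and -2.33 ± 0.44 on 1 probe, but 0.30 and 0.04 on the other. Sp1, a general GC-box factor, had -2.68 ± 0.66 and -4.76 ± 0.66 on the called probe, and -0.57 and -0.72 on the other. With probes averaged per gene, the alcohol-fed calls of Foxa2 (-0.28) and Sp1 (-1.29) ended, as they did with placeholders kept as values (-1.17 and -1.45).

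**Figure D4:**
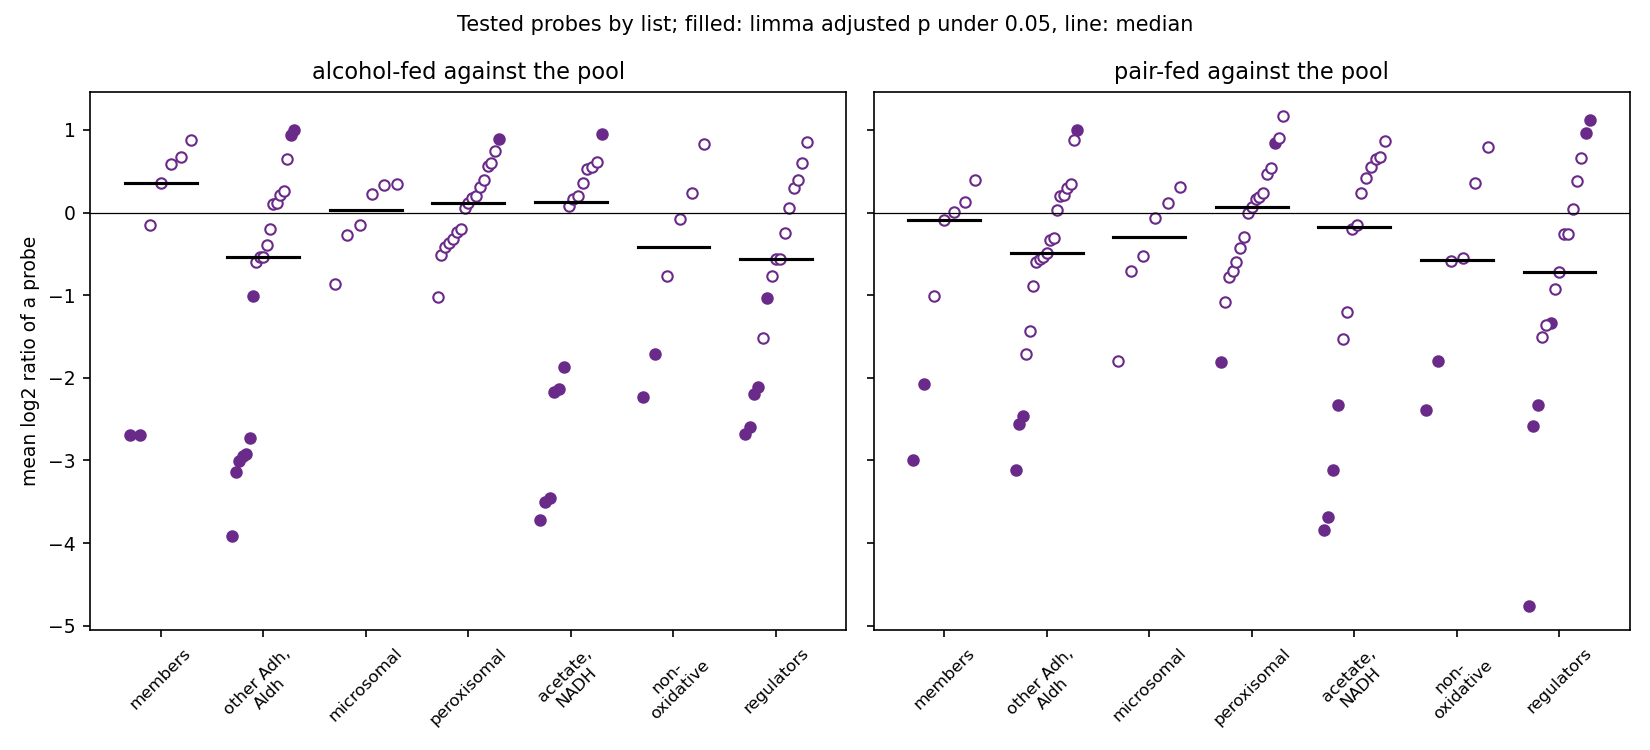
Mean log2 ratio to the ad libitum pool (vertical axis) of each tested probe of the member genes and of 6 lists of other pathway genes, in alcohol-fed (left) and pair-fed (right) samples; filled points have a limma adjusted p under 0.05 and lines are list medians. The peroxisomal list lies around 0 while Cat probe M29394, the lowest tested member probe, is at -2.69 and -3.00.

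Some markers of cell types known for these enzymes were called against the pool, where 23.5% (alcohol-fed) and 21.3% (pair-fed) of all tested probes were. Of 17 tested hepatocyte marker genes 6 were lower and 0 higher in alcohol-fed samples, and 6 lower and 1 higher in pair-fed samples. The median ratio of their probes on an array ran from -0.69 to 0.04 and from -0.82 to -0.03 respectively. Of 8 erythroid marker genes 4 and 5 were lower and 0 higher, with array medians of -1.65 to -0.58 and -2.05 to -0.27. Lung epithelial markers (8 genes) had 4 lower and 1 mixed in each group. Kidney tubule markers (10 genes) had 5 lower in each group and 1 higher in alcohol-fed samples. Gastric and intestinal markers (14 genes), the sites of Adh7, had 3 and 1 lower. Their part in the low ratios of Adh4 and Cat was not tested. Ratios carry no absolute level, so the markers do not show which tissue was sampled.

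Across the 14 arrays the 5 members with a value on all of them did not vary as a block. Pearson correlations of their 10 pairs ran from -0.56 (Adh7 with Aldh2) to 0.50 (Aldh2 with Aldh1b1), with 7 above 0 and a median of 0.31. Pairs of the 11469 named probes with a value on every array had a median of 0. All points share the pool and the arrays. Among Aldh2, Aldh1a1 and Aldh1b1 the 3 correlations were 0.50, 0.46 and 0.49, and those of Adh7 with the same genes were -0.56, -0.22 and -0.46. The probes most like each member among 11468 others were Ppp1r3g (r = 0.87) and Gprin3 (0.87) for Adh5, Sec61g (0.95) and Psma3 (0.95) for Adh7, and S1pr2 (0.85) and Castor2 (0.84) for Aldh2. For Aldh1a1 they were Mapkapk2 (0.83) and Slc25a20 (0.82), and for Aldh1b1 Prpf40b (0.88) and Rhbg (0.88). The most opposed were Mif (-0.89), Tpbg (-0.88), 4930538L07Rik (-0.90), Casp8 (-0.84) and Zfp746 (-0.91), in the same order of members. With so many probes compared over 14 arrays, these extremes are a description only.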

How the data were processed

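The authors deposited values read here as log2 ratios, likely of sample to pool, in 1 table of 21582 probes and 14 arrays. How these were made, scaled and normalized is stated neither in labels nor in headers, and the log2 scale was read from the values. Per the labels' protocols, total RNA was isolated with an Ambion kit and labelled with a Genisphere kit. The image software and background correction are likewise not given in the sources, and spot brightness is unknown. Values of exactly 0 and of 16.61 were set to missing, and each array was centred on its median. Probes with at least 4 values per group were tested in R 4.3.3 with limma 3.58.1 (eBayes after lmFit, 14 arrays in 1 fit, two-sided, Benjamini-Hochberg adjusted over 20876 probes, threshold 0.05), checked on simulated data. Against the pool a group mean was tested against 0. For members, 10 two-sided exact permutation tests of the difference and 20 exact sign-flip tests against the pool were added (Python 3.11.15, scipy 1.17.1), unadjusted. Errors are limma standard errors (SE) unless given as SD.

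Named were all members, up to 3 genes per list and comparison with the smallest p among called probes (otherwise the 1 with the smallest p), and for each member with 14 values the 2 most correlated probes and the most opposed. Outside this rule, Aldh1a2 was named with its values known, as were Hnf4a and Foxo3, whose probes disagreed. The tested microsomal partners and Por were named too. Of the probes 16635 had 1 gene symbol, 113 several and 4834 none. The members, lists and tests were chosen with earlier results of these data known. The arrays' number limits the precision.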

Additional observations from a re-analysis of the deposited data

How the results depend on the processing

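Under every setting run, 0 member probes and 0 probes of other pathway genes were called between alcohol-fed and pair-fed samples. Member probes called against the pool numbered 2 in each group. For alcohol-fed samples the count was 1 with placeholders kept as values (Cat) and 1 with values on all 14 arrays only (Adh5). When single arrays were left out it was 1 to 3. It was 3, with Adh5 higher beside Adh4 and Cat, after quantile or scale normalization and with array weights. The same 3 were called with each group fitted alone and with probes averaged per gene. For pair-fed samples the count was 0 with all 14 arrays only, where Cat and Adh4 are no longer tested. It was 1 to 2 when single arrays were left out, and 3 with Adh1 added when 2 values per group were allowed. Without alcohol-fed array 2, 3, 4 or 7, Adh4 had too few values to be tested. Other pathway probes called in alcohol-fed samples numbered 13 of 51 tested with all 14 arrays only, and 24 of 77 in the main test. The first setting called 3330 of all 14666 probes. With single arrays left out they numbered 16 to 26, and in pair-fed samples 12 to 19. Of all tested probes, 17.3% to 25.6% and 15.8% to 23.6% were then called.

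The following signs turned, none of them of a called value, and the cause was not tested. With placeholders kept, the difference became 0.25 for Adh4, 1.84 for Cyp2e1 and -0.40 for Cat probe NM_009804, and ratios to the pool became 2.23 for Cyp2e1 in alcohol-fed and -0.0011 for Aldh1a1 in pair-fed samples. The pair-fed ratio of Aldh2 was 0.017 as deposited and 0.0033 after quantile normalization. The alcohol-fed ratio of Aldh1b1 was 0.051 after quantile normalization and 0.14 with array weights. The difference at Cat probe M29394 was -0.027 with array weights and -0.11 without the 2 arrays with most placeholders, a setting chosen after seeing the data. With single arrays left out, pair-fed ratios ran from -0.011 to 0.21 for Adh7, -0.24 to 0.092 for Aldh2 and -0.17 to 0.15 for Aldh1a1, the alcohol-fed ratio of Aldh1b1 from -0.37 to 0.35, and the difference at Cat probe M29394 from -0.16 to 0.83.

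As deposited and after quantile normalization the median of all probes was 0.14 and 0.14 in alcohol-fed and 0.09 and 0.08 in pair-fed samples, and the share of higher among called probes in alcohol-fed samples was 44.2% and 48.7%, against 34.1%. Replicate numbers are shared by the groups, and same-numbered arrays correlated at -0.10 to 0.23. Weak correlations over so few arrays cannot show whether a shared number marks a matched pair. With the replicate block 0 probes were called in the difference, 4922 in alcohol-fed and 4449 in pair-fed samples, and 2 member probes in each of the last.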

Other observations

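The deposited ratios hold a further property, more frequent at sparse probes of the whole table and looked for after the values were seen. Values that equal, to 3 decimals, the log2 of a ratio of whole numbers up to 12 made up 2.50% of all ratios, and 1.99% at probes without placeholders. The share was 9.17% at probes with placeholders on 4 to 6 arrays and 15.1% at those with 7 to 8. Of the 8 Cyp2e1 ratios 2 were of this kind, 12 over 1 on alcohol-fed array 5 and 9 over 1 on pair-fed array 1. Cat probe NM_009804 had 1 of 8, Adh4 1 of 10 and Aldh1b1, which had no placeholders, 1 of 14. Adh1, the member with most placeholders, had 0 of 6, and the remaining member probes also had 0. What these values stand for was not tested.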
